A study of Mus musculus with 2 samples.

Results

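Ventricular cardiomyocyte nuclei with low mitochondrial RNA were chosen by 3 limits on the unique molecular identifiers (UMIs, each counting 1 captured RNA molecule) of a single nucleus. Ttn, Myh6, Ryr2, Tnnt2, Ctnna3 and Trdn together made at least 3% of the UMIs, the mitochondrially encoded genes under 2%, and the atrial genes Sln, Myl4, Myl7 and Nppa together under 1%. The limits kept 1197 of 18164 nuclei, 712 of 10197 in the control library and 485 of 7967 under PD-1 inhibitor. Because the members were defined by these genes, the levels of the 10 genes of the rule and of the mitochondrial genes describe the choice and are not results of it.

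The study sequenced nuclei from hearts of male C57BL/6 mice that were 8 weeks old at the start, to ask how blocking the immune checkpoint receptor PD-1 affects the heart. In the PD-1 inhibitor group, InVivoPlus antibody against mouse PD-1 was given by the intraperitoneal route, 5 mg/kg each time, first on day 1 and again on day 14, within a cycle lasting 28 days. Control mice had PBS at those times. There was 1 library per condition, and the number of hearts pooled in each and the chambers taken are not given in the sources used here. Differences between the libraries therefore have no replicate check, no p-value is given, and the intervals below (95%) reflect counting error alone.

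Cardiomyocytes are the contractile cells of the heart, in which thick myosin and thin actin filaments slide past each other each time calcium leaves the sarcoplasmic reticulum through the ryanodine receptor Ryr2. Adult ventricular cells of the mouse use the myosin heavy chain Myh6 and burn mainly fatty acids in very abundant mitochondria. RNA encoded in mitochondria lies outside the nucleus, so a nucleus preparation holds it only where RNA from outside the nucleus comes along. RNA of the nucleus is in part unspliced and still carries introns.

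The 250 bases before the start site of 4 genes described below are shown first, from RefSeq on GRCm38.p6 (mouse). They are written 5′ to 3′ on the strand of the gene and end at the base before the start. Tnnt2 (cardiac troponin T) is a gene of the rule, so its level describes the choice. Myh7b (a slow-type myosin heavy chain gene that hosts a microRNA) lies outside the rule and was higher in these nuclei than in all other nuclei. Pdk4 and Txnip were the genes with the lowest PD-1 inhibitor over control ratio in the class, among genes with at least 200 UMIs there. Capitals mark matches to 5 motifs searched on both strands, the TATA box TATAAA, the E box CACGTG, the GATA motif AGATAA, the MCAT motif CATTCC and the forkhead motif GTAAACA. No pair of these matches overlapped.
Tnnt2 (first of 2 start sites, chr1:135836084-135836333, plus strand): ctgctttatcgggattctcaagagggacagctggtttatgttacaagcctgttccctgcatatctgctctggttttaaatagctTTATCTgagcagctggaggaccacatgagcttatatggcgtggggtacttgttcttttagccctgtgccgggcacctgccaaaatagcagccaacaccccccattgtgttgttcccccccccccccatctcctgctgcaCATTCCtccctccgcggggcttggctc
Myh7b (chr2:155610993-155611242, plus strand): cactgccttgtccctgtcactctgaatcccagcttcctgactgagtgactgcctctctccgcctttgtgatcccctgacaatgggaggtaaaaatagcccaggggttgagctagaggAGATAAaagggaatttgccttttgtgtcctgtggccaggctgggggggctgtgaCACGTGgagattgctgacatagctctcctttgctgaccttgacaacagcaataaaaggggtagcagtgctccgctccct
Pdk4 (chr6:5496279-5496528, minus strand): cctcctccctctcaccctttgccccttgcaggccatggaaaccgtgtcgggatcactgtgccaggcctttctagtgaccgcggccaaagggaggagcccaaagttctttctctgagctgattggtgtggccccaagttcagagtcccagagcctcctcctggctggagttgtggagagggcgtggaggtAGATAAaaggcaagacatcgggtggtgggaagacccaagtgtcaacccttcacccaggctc
Txnip (chr3:96557707-96557956, plus strand): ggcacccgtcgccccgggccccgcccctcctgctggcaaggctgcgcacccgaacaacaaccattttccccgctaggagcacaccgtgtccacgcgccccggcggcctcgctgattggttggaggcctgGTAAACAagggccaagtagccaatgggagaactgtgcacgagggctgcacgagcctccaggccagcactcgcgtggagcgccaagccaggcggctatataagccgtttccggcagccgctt

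The Tnnt2 window held a GATA motif on the minus strand at bases 166 to 161 before the start and an MCAT motif at bases 27 to 22, and the window of its second annotated start held none of the 5. Myh7b had a GATA motif at bases 133 to 128 and an E box at bases 79 to 74. Pdk4 had a GATA motif at bases 61 to 56, and Txnip had the forkhead motif at bases 121 to 115. Among 27025 RefSeq windows of the same length, 10.3% held the GATA motif, 12.6% the MCAT motif, 6.05% the E box, 3.09% the forkhead motif and 13% the TATA box. A match describes the letters of the window and says nothing of a factor bound there.

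The cardiomyocyte identity of the nuclei was checked with genes outside the rule. A list of 27 further cardiomyocyte genes made 5.34% of UMIs in the control nuclei of the class and 5.08% in the PD-1 inhibitor ones, against 0.759% and 0.768% in nuclei under the 3% limit, and every one of the 1197 nuclei had at least 1 UMI of the list. The 12 ventricular genes made 1.28% and 1.42%, against 0.239% and 0.268%. Irx4, the ventricular homeobox factor, had 78.9 CPM (UMIs per 1000000 UMIs of the same nuclei) in the control nuclei and 55.6 in the PD-1 inhibitor nuclei, log2 ratios over all other nuclei of 4.07 and 3.37. Gja1, the main gap junction protein of the working ventricle, was higher by log2 2.81 and 3.01, and Myl2, the ventricular myosin light chain, by 1.07 and 1.13. Of 10 measured ventricular genes, 8 were at least 2-fold higher than in all other nuclei in both libraries, with medians of 2.15 and 2.13. Of 5 measured atrial genes outside the rule, 3 were higher as well, with medians of 1.09 and 1.46. Most other nuclei are not cardiomyocytes, so these values describe cardiomyocyte identity and do not by themselves tell ventricular from atrial nuclei. Against low mitochondrial cardiomyocyte nuclei with at least 1% atrial UMIs, 3 of the 10 ventricular genes were at least 2-fold higher and 1 lower. The medians were 0.59 and 0.99, and 3.85% and 8.57% of all genes were higher and lower. Against cardiomyocyte nuclei with at least 2% mitochondrial UMIs, 2 were higher and 3 lower, with medians of -0.74 and -0.12. There 22.4% and 10.6% of all genes were higher and lower.

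Few UMIs came from other cell types, and each of the lists below made a smaller share of the class's UMIs than of those in nuclei under the 3% limit. Fibroblast markers (15 genes, none at 0) made 0.110% of the class's UMIs in the control library and 0.155% under PD-1 inhibitor, against 1.45% and 1.77% in nuclei under the 3% limit. Endothelial markers (15 genes, of which 1 was at 0 in the control library) made 0.0486% and 0.0554%, against 0.501% and 0.521%. Macrophage markers (15 genes) made 0.0491% and 0.0515%, and T cell markers (10 genes) 0.00246% and 0.00222%. Mural cell markers made 0.0990% and 0.0972%, but Des, the muscle intermediate filament protein, and Abcc9, a potassium channel subunit, which cardiomyocytes also express, held most of those UMIs. Scrublet called 45 of the 712 control nuclei doublets (6.32%, 4.65 to 8.37) and 17 of the 485 PD-1 inhibitor nuclei (3.51%, 2.05 to 5.55), shares close to those in all nuclei, 5.74% and 4.23%.

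The class held 1585010 UMIs in the control library (12.0% of all) and 989254 under PD-1 inhibitor (9.10%). The median nucleus of the class had 1694 UMIs in the control and 1591 under PD-1 inhibitor, against 1020 and 1066 over all nuclei. Of the 48 cell barcodes found in both libraries, 4 belonged to a nucleus of the class in 1 library and none to the class in both.

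The class made 6.98% (6.50 to 7.49) of control nuclei and 6.09% (5.57 to 6.64) of PD-1 inhibitor nuclei, a ratio of shares of 0.872 (0.775 to 0.980). The order depended on the limit, since with at least 5% cardiomyocyte UMIs the ratio was 1.04 and with under 1% mitochondrial UMIs it was 0.695. Of all nuclei with at least 3% cardiomyocyte UMIs, the class made 59.2% of 1203 in the control library and 52.4% of 925 under PD-1 inhibitor. Most of the remainder, 459 and 406 nuclei, had at least 2% mitochondrial UMIs, and 13 and 8 low mitochondrial nuclei passed the atrial limit. A share of nuclei cannot tell fewer cells from a different recovery of their nuclei.

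The mitochondrial limit fell in a sparse stretch of values. In the control library 14 nuclei had 1.5 to 2% mitochondrial UMIs and 13 had 2 to 2.5%, and under PD-1 inhibitor the counts were 28 and 9. At the cardiomyocyte limit, 54 control nuclei lay at 2.5 to 3% and 69 at 3 to 3.5%, with 24 and 36 under PD-1 inhibitor. The median nucleus with at least 2% mitochondrial UMIs had 8.49% in the control library and 7.92% under PD-1 inhibitor, far from the limit. Within the class, the median mitochondrial share was 0.337% in control nuclei and 0.654% in PD-1 inhibitor nuclei, so the PD-1 inhibitor nuclei sat closer to the limit.

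**Figure D1:**
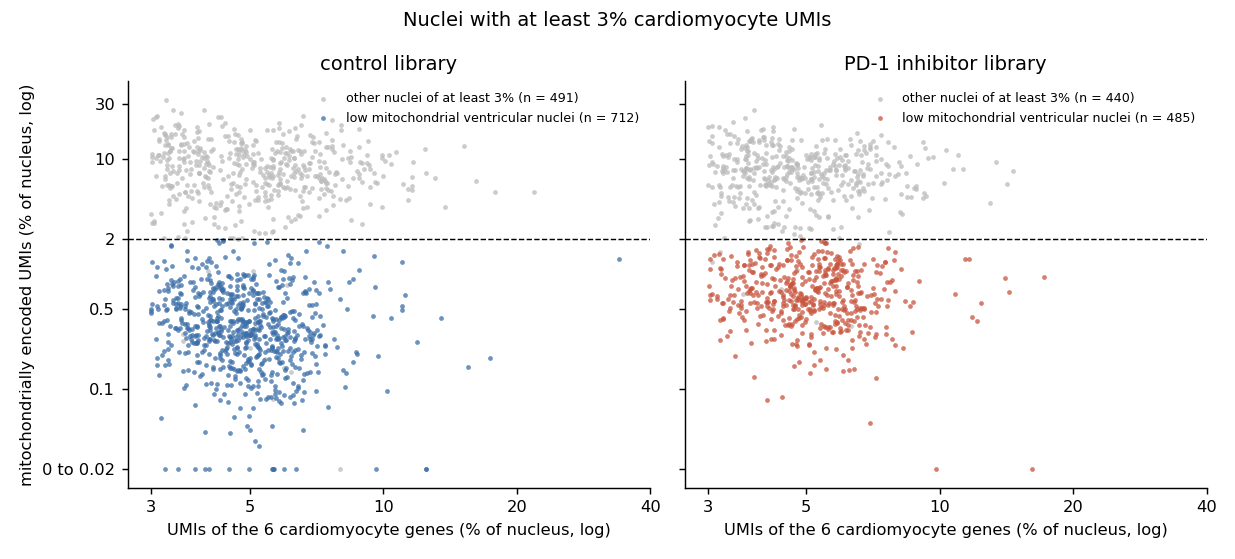
Each point is a nucleus with at least 3% cardiomyocyte UMIs, with its share of UMIs from the 6 cardiomyocyte genes (x axis, %, log scale) and from mitochondrially encoded genes (y axis, %, log scale), for the control library (left) and the PD-1 inhibitor library (right). Coloured points are the class (712 and 485 nuclei), grey points the other nuclei, the dashed line is the 2% limit, and values under 0.02% are drawn at the lowest mark. Both libraries hold 2 clouds with few nuclei between them, and the lower cloud sits higher under PD-1 inhibitor (medians 0.654% against 0.337%).

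The genes that set the class apart from all other nuclei were led by enzyme, channel and noncoding RNA genes, with Myh7b the sole myosin gene among the 14 genes plotted. Of the 7189 genes with at least 50 UMIs in the class, 13.9% were at least 2-fold higher and 15.1% at least 2-fold lower than in all other nuclei in both libraries, and 24 of the 27 cardiomyocyte genes outside the rule were among the higher ones. All genes of a nucleus bear on how it was classed, so these values are a description without a test.

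Hs3st5, a heparan sulfate sulfotransferase, had 617 CPM in the class against 20 CPM in other nuclei of the control library, and 455 against 15.2 under PD-1 inhibitor. After every nucleus was thinned to 500 UMIs, Hs3st5 was detected in 21.5% and 17.5% of the class's nuclei, against 0.878% and 0.639% of nuclei under the 3% limit. Fgf13, a regulator of cardiac sodium channels, had 2351 CPM against 86.9 CPM, and 1742 against 63.8. Kcnn2, a calcium-activated potassium channel, had 676 CPM against 23.6 CPM, and 456 against 19.4. The log2 PD-1 inhibitor over control ratios of these 3 genes in the class, -0.44, -0.43 and -0.57, did not pass 1.5-fold, and in nuclei under the 3% limit they were -0.52, -0.47 and -0.26.

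Myh7b had 681 CPM in the control nuclei of the class and 692 in the PD-1 inhibitor ones, against 29.9 and 16.7 in all other nuclei. Its log2 PD-1 inhibitor over control ratio in the class was 0.02 (-0.12 to 0.16). Mir133a-1hg, the host transcript of a muscle microRNA, had 1107 and 1099 CPM in the class against 39.0 and 39.0 in other nuclei. For both of these microRNA hosts the counting interval of the PD-1 inhibitor over control ratio included 0.

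Among these 14 leading genes, 5 lay entirely within a gene on the opposite strand, and the sources used here do not say whether counting used the strand. D830005E20Rik (chr10:33222345-33256418, minus strand) lies within Trdn, a gene of the rule, and had 2184 CPM in the control nuclei of the class against 72.5 CPM in other nuclei. Gm17428 and Gm31251 lie within Myh7 on the opposite strand and had 687 and 1699 CPM in the control nuclei of the class, while Myh7 itself had 77.6. Mir133a-1hg and D830024N08Rik also lay within another gene. The antisense RNA Mhrt, which overlaps Myh7 in part, had 961 CPM in the control nuclei and 1120 in the PD-1 inhibitor nuclei, log2 ratios over other nuclei of 4.45 and 4.88. Reads of such a transcript and of its partner cannot be told apart without strand.

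**Figure D2:**
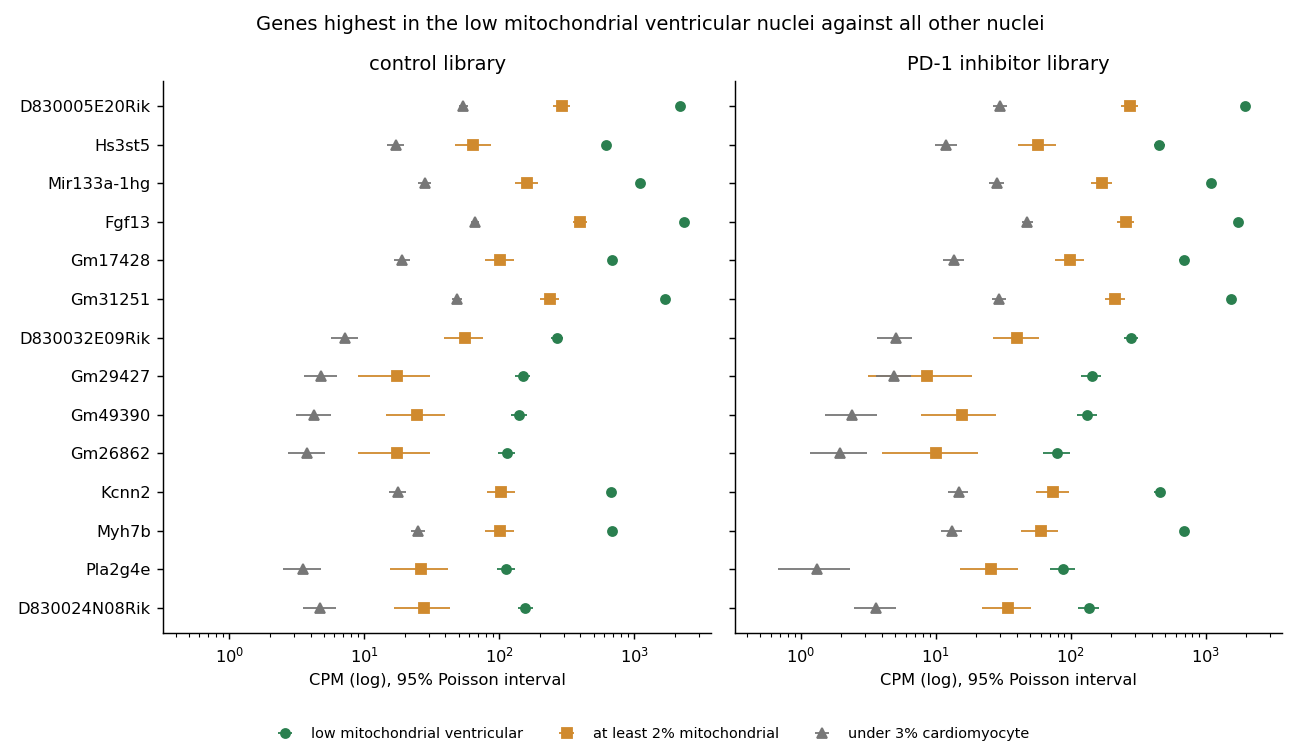
CPM (x axis, log scale) of 14 of the 15 genes with the highest ratio of the class over all other nuclei, in the control library (left) and the PD-1 inhibitor library (right). Circles are the class, squares cardiomyocyte nuclei with at least 2% mitochondrial UMIs, triangles nuclei under 3% cardiomyocyte UMIs, and bars 95% Poisson intervals. Each gene is highest in the class in both libraries, as for Hs3st5 at 617 against 64.3 and 17.1 CPM in the control library.

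The class was next set against the cardiomyocyte nuclei that meet the same rule except that at least 2% of their UMIs are mitochondrial. Of the 7189 genes, 22.4% were at least 2-fold higher in the class in both libraries and 10.6% at least 2-fold lower, and the lower ones took in 69 of 74 nuclear-encoded respiratory chain genes, 39 of 44 ribosomal protein genes and, by the rule, 7 of 7 mitochondrially encoded genes. Ndufs6, a subunit of complex I, had 76.3 CPM in the control nuclei of the class against 1146 CPM in the high mitochondrial ones. Ndufb9, another complex I subunit, had 99.1 against 1011. Among the energy genes, 18 of 33 genes of fatty acid use and 14 of 28 of glucose, glycogen and ketone use were lower in the class.

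Genes of electrical and signalling function showed the opposite order. In the class, 10 of 19 sodium and potassium channel genes, 13 of 24 phosphodiesterases and contraction kinases and 13 of 26 growth factor and hormone receptors were at least 2-fold higher than in the high mitochondrial nuclei of both libraries. Kcnd2, a subunit of the transient outward potassium current, had 1961 CPM in the control nuclei of the class against 193 CPM, and 1307 against 186 under PD-1 inhibitor. Myocd, a coactivator of muscle gene transcription, had 1551 against 224 and 973 against 136. Malat1, a long noncoding RNA that stays in the nucleus, had 117149 CPM in the class and 18122 in the high mitochondrial nuclei of the control library, and 126515 against 19576 under PD-1 inhibitor.

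The cardiomyocyte genes of the rule, whose values describe the choice, ranged widely in this comparison. Ctnna3, an adhesion protein of the intercalated disc, was higher in the class by log2 2.96 (control) and 2.55 (PD-1 inhibitor), and Ryr2 by 1.54 and 1.39. Ttn, the giant spring protein of the sarcomere, differed by -0.20 and 0.01, Tnnt2 by -0.14 and 0.10, and Myh6 by -0.51 and -0.16. Within the class, Myh7b made 4.61% (control) and 3.70% (PD-1 inhibitor) of the UMIs of Myh7b and Myh6 together, against 0.502% and 0.298% in the high mitochondrial nuclei. The ubiquitous cytochrome oxidase subunit Cox6a1 made 32.0% (28.7 to 35.5) and 23.3% (20.2 to 26.7) of Cox6a1 and the muscle form Cox6a2 together, against 7.88% and 5.89%. These pairs were picked after their values had been seen.

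Gene length ran along the same axis. Across 5 equal bins of genomic span, the median log2 ratio of the class over the high mitochondrial nuclei went from -0.38 in the bin of the shortest genes (median span 6.76 kb) to 0.94 in the bin of the longest (160 kb) in the control library, and from -0.22 to 0.92 under PD-1 inhibitor. In both libraries long genes were thus relatively higher in the class and short genes in the high mitochondrial nuclei.

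Only 13 control and 8 PD-1 inhibitor nuclei had low mitochondrial RNA and at least 1% atrial UMIs, with 18007 and 12468 UMIs in all, so only large differences from them could be measured. Of the 7189 genes, 3.85% were at least 2-fold higher in the class in both libraries and 8.57% at least 2-fold lower, and the lower ones took in 4 of the 5 measured atrial genes outside the rule. Pam, a peptide-amidating enzyme, had 657 CPM in the control nuclei of the class and 5942 CPM (107 UMIs) in the atrial ones. Kcnj3, a subunit of the acetylcholine-gated potassium channel, had 346 against 2499 CPM (45 UMIs), and 230 against 2166 CPM (27 UMIs) under PD-1 inhibitor. Angpt1, an endothelial growth factor, had 167 against 2832 CPM (51 UMIs).

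Within the class, PD-1 inhibitor and control nuclei were compared gene by gene by the ratio of CPM over the summed UMIs of each library. The median log2 ratio over the 7189 genes was 0.00, and 7.79% of genes were at least 1.5-fold higher and 7.78% at least 1.5-fold lower under PD-1 inhibitor. These shares are the background for each count of list genes below. The 95% counting interval excluded 0 for 444 of the 560 higher genes and 414 of the 559 lower genes. Of 11 measured fibroblast markers 3 were among the higher genes (median 0.42, with 0.17 in nuclei under the 3% limit), and the part of fibroblast RNA in other results was not tested. Among the 2402 genes with at least 200 UMIs in the class, Pdk4 and Txnip had the lowest ratios.

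Pdk4 (chr6:5483351-5496309, minus strand, GRCm38), the kinase that switches off pyruvate dehydrogenase when fatty acids are burned, had 280 UMIs (177 CPM, 157 to 199) in the control nuclei of the class and 20 (20.2 CPM, 12.3 to 31.2) in the PD-1 inhibitor ones. The log2 ratio was -3.09 (-3.86 to -2.47). It was detected in 22.5% of control nuclei and 3.71% of PD-1 inhibitor nuclei, and after thinning in 6.88% and 0.412%, where nuclei under the 3% limit gave 1.85% and 0.951%. Under PD-1 inhibitor the thinned share of the class rested on 2 of 485 nuclei (0.0500 to 1.48%), an interval that holds the 0.951%. Without thinning, 2.02% of PD-1 inhibitor nuclei under the limit had a Pdk4 UMI, less than the 3.71% of the class. These values do not settle how the class and the other nuclei compare for Pdk4 under PD-1 inhibitor.

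Pdk4 differed less in the other nuclei. In nuclei under the 3% limit it had 96.8 and 25.1 CPM, a log2 ratio of -1.95 (-2.16 to -1.74). Those nuclei pool many cell types in a mix that differed between the libraries. Adipocyte markers made 0.0931% of their UMIs in the control library and 0.0266% under PD-1 inhibitor, and fibroblast markers 1.45% and 1.77%. The part of that mix in the ratio was not tested. In cardiomyocyte nuclei with at least 2% mitochondrial UMIs, 180 CPM in the control library stood beside 164 under PD-1 inhibitor, a log2 ratio of -0.13 (-0.51 to 0.25). The high mitochondrial and low mitochondrial cardiomyocyte nuclei were alike for Pdk4 in the control library, at 180 and 177 CPM, and apart under PD-1 inhibitor.

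Txnip (chr3:96557957-96561883, plus strand, GRCm38), which binds thioredoxin and limits glucose uptake, had 1004 UMIs (633 CPM, 595 to 674) in the control nuclei of the class and 142 (144 CPM, 121 to 169) in the PD-1 inhibitor ones, a log2 ratio of -2.14 (-2.41 to -1.89). Its ratio was -1.14 (-1.57 to -0.72) in the high mitochondrial nuclei and -0.17 (-0.24 to -0.10) in nuclei under the 3% limit. After thinning it was detected in 25% and 6.80% of the class's nuclei, where the nuclei under the limit gave 14.0% and 12.7%. Txnip in the class was therefore above the other nuclei in the control library and below them under PD-1 inhibitor. Gm15441, on the opposite strand across the whole of Txnip, had 23 and 5 UMIs.

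The rest of the 10 lowest genes were led by Gm47283 on the Y chromosome, with 174 and 33 UMIs (log2 -1.70), which was also lower in nuclei under the 3% limit (-2.49). March3, a ubiquitin ligase, had 185 and 45 UMIs (log2 -1.35, -1.86 to -0.88), and the kinase Hipk2 had 205 and 58 (-1.13, -1.59 to -0.71). Ugp2, which makes the UDP-glucose used for glycogen, had 763 and 236 UMIs (log2 -1.01, -1.23 to -0.80), while its ratio was 0.06 in the high mitochondrial nuclei and -0.00 in nuclei under the limit. Klf12, Mid1, Fam172a and Cct3 had log2 ratios of -1.14, -1.10, -0.97 and -0.95. These genes were picked for their ratio in the class, and in the high mitochondrial nuclei March3 (-1.42) and Fam172a (-1.02) had ratios as low.

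At the high end, 3 of the 10 genes with the highest ratio were mitochondrially encoded and thus used by the rule, mt-Nd3 (log2 1.21), mt-Nd5 (0.99) and mt-Nd2 (0.93). Tmx1, a thioredoxin-like protein of the endoplasmic reticulum, had 111 UMIs in the control nuclei and 158 in the PD-1 inhibitor nuclei (log2 1.19, 0.83 to 1.55). Plscr2, of the phospholipid scramblase family, had 314 and 431 (1.14, 0.92 to 1.35). Mlf1 had 292 and 366 (1.01, 0.78 to 1.23), with 0.96 (0.61 to 1.32) in the high mitochondrial nuclei as well. Gabarapl1, of the autophagy machinery, the ADP/ATP carrier Slc25a5, Scaf11 and the ATP synthase subunit Atp5h had log2 ratios of 1.00, 0.94, 0.93 and 0.93.

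**Figure D3:**
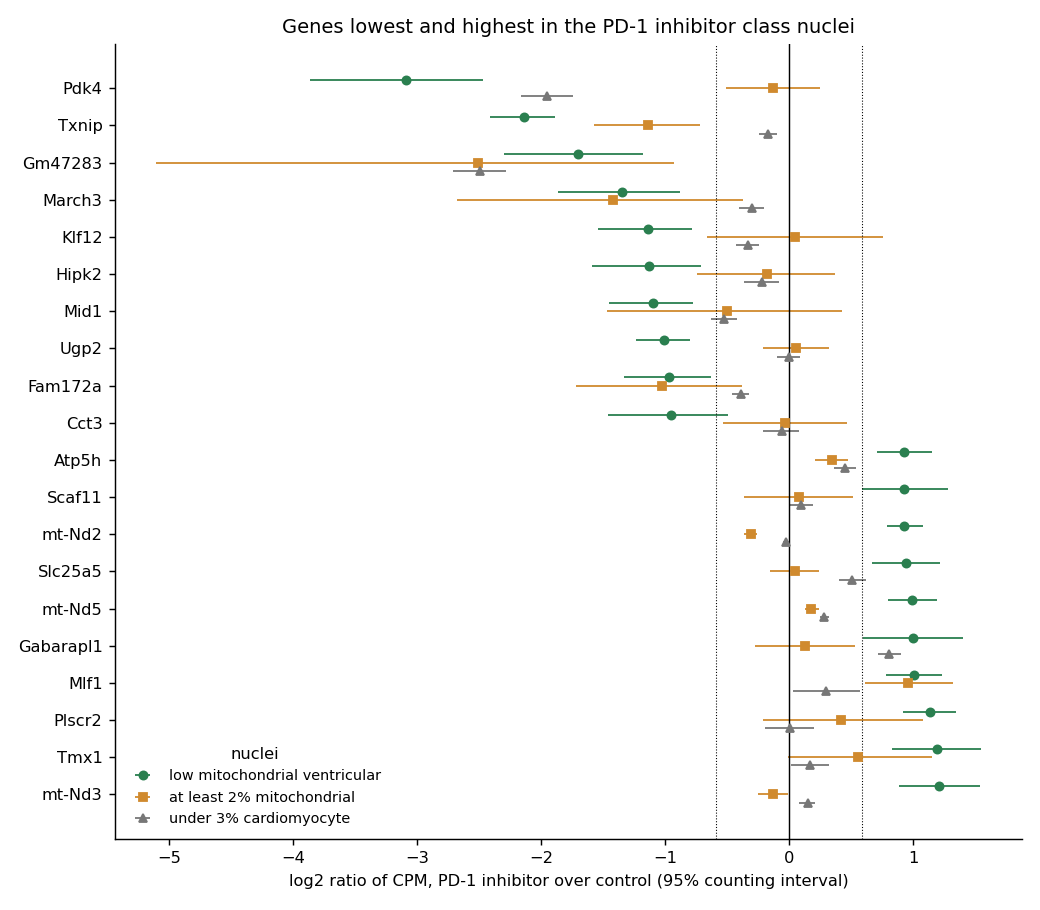
Log2 ratio of CPM, PD-1 inhibitor over control (x axis), of the 10 genes with the lowest and the 10 with the highest ratio in the class among genes with at least 200 UMIs there. Circles are the class, squares cardiomyocyte nuclei with at least 2% mitochondrial UMIs, triangles nuclei under 3% cardiomyocyte UMIs, bars 95% counting intervals, and dotted lines 1.5-fold. Pdk4 stands at -3.09 in the class, -0.13 in the squares and -1.95 in the triangles.

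The sarcomere genes went in both directions. The 6 cardiomyocyte genes of the rule, for which it set only a lower limit on their sum, together had 51523 CPM in the control nuclei of the class and 54228 in the PD-1 inhibitor ones, and the values of each of them are a description of the nuclei chosen. Tnnt2 had 13000 UMIs (8202 CPM) in the control nuclei and 12587 (12724 CPM) in the PD-1 inhibitor nuclei, a log2 ratio of 0.63 (0.60 to 0.67). Its ratio was 0.39 in the high mitochondrial nuclei and 0.32 in nuclei under the limit, in the same direction and smaller. Myh6 had 14090 and 18003 CPM, a log2 ratio of 0.35 (0.33 to 0.38), and Ttn 16418 and 13806 CPM, a ratio of -0.25 (-0.28 to -0.22). Among 14 genes of the thick filament and M-band, 1 was higher (Myom2, 0.63) and 1 lower (the kinase Mylk4, -0.69), with a median of 0.03. Among 11 thin filament genes, Acta1 was lower (-0.62, on 87 and 35 UMIs), the sole gene past 1.5-fold in the other direction was Tnnt2 of the rule, and the median was 0.10.

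Z-disc and costamere genes, which anchor the filaments, had a median of -0.22 over 29 genes, with 3 lower and 1 higher. Over all genes, 7.78% were lower and 7.79% higher, so these counts were near the share over all genes. Actn2, the crosslinker of the Z-disc, had 2894 UMIs in the control nuclei and 1011 in the PD-1 inhibitor nuclei (1826 and 1022 CPM), a log2 ratio of -0.84 (-0.94 to -0.73). Its ratio was -0.04 in the high mitochondrial nuclei and -0.06 in nuclei under the limit. Flnc (-0.62) and Pdlim3 (-0.62) were the other lower genes, and Itgb1bp2 the higher one (0.63, on 427 and 412 UMIs).

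Calcium and channel genes mostly stayed within 1.5-fold. Of 22 calcium handling genes, Sri was higher (1.02, on 53 and 67 UMIs) and the sodium-calcium exchanger Slc8a1 lower, at 4789 and 3043 CPM (-0.65, -0.72 to -0.59). Ryr2 had 8607 and 6497 CPM (-0.41, -0.45 to -0.36), and phospholamban, Pln, 4619 and 5728 CPM (0.31, 0.26 to 0.36). None of 19 sodium and potassium channel genes passed 1.5-fold, with Kcnd2 (-0.58) and Kcnj3 (-0.58) nearest. Of 24 phosphodiesterases and contraction kinases, 2 were lower, Prkg1 (-0.74) and Map3k5 (-0.69), and the median was -0.25. Of 18 intercalated disc genes, Gjc1 was lower (-0.90, on 61 and 20 UMIs) and Lrrc10 higher (0.63).

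Most genes of fuel use lay within 1.5-fold. Of 33 genes of fatty acid use, 2 were higher, Slc25a20 (0.65, on 49 and 48 UMIs) and the lipase Pnpla2 (0.61), and 2 lower, Pdk4 and Ppara, the nuclear receptor that drives fatty acid genes (-0.75, -0.96 to -0.56, on 785 and 290 UMIs), with a median of 0.22. Of 28 genes of glucose, glycogen and ketone use, Pgam2 was higher (0.90) and Ugp2 lower, with a median of 0.11. None of 7 creatine and phosphotransfer genes passed 1.5-fold.

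Among 23 cardiac transcription factors, Ppara, Myocd (-0.67, 1551 and 973 CPM) and Zfpm2 (-0.62) were lower and Irx3 was higher (1.19, on 30 and 43 UMIs), with a median of -0.25. Over all genes, 7.78% were lower and 7.79% higher. Immediate early genes, which respond within minutes to stress and handling, were lower for 6 of 14 and higher for 2, with a median of -0.20. Fos had 46 and 4 UMIs (log2 -2.69), Nr4a1 135 and 24 (-1.79) and Dusp1 234 and 83 (-0.81). Fos and Nr4a1 were also lower in nuclei under the limit, by log2 -3.35 and -1.89. After thinning to 500 UMIs none of the genes of this list that still had 50 UMIs was at least 1.5-fold lower. Thinning leaves fewer UMIs, so the lower genes can fall under that minimum. The count thus does not show whether the list was alike at equal depth. After thinning, Nr4a1 was detected in 2.67% (1.61 to 4.14) of control nuclei and 1.24% (0.455 to 2.67) of PD-1 inhibitor nuclei.

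Of 11 genes of the hypertrophy and fetal programme, 3 were lower and none higher, where 7.78% of all genes were lower, with a median of -0.37. Nppb, the natriuretic peptide B gene, had 744 CPM in the control nuclei and 488 in the PD-1 inhibitor nuclei (log2 -0.61, -0.76 to -0.45), and Acta1 and Flnc, named above, were the others. Nppb was detected in 22.9% and 16.9% of nuclei after thinning. Myh7, the fetal myosin, had 77.6 and 94.0 CPM (0.28, -0.13 to 0.68) and made 0.548% and 0.519% of the UMIs of Myh7 and Myh6 together. With under 5% mitochondrial UMIs as the limit, 1 gene of this list was lower.

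Of 20 heat shock and chaperone genes, 5 were lower and none higher, where 7.78% of all genes were lower, with a median of -0.03. The 5 became 3 with at least 5% cardiomyocyte UMIs and 2 after thinning, both of which leave fewer UMIs. Hsph1 had 65 and 11 UMIs (log2 -1.83), and Dnaja1 (-0.83), the myosin chaperone Unc45b (-0.70) and Hspa8 (-0.65) were lower as well, beside Hspa5 (0.53) and Hsf1 (0.57). The sign of the median changed with the limits, to 0.06 with at least 5% cardiomyocyte UMIs.

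Immune genes gave few UMIs in these nuclei. None of 10 interferon response genes and none of 10 antigen presentation and checkpoint genes passed 1.5-fold, with medians of 0.07 and 0.02. H2-D1, a class I heavy chain, had 197 and 275 CPM (0.48, 0.24 to 0.72), lower in the class than in other nuclei by log2 -2.95 and -2.80. Pdcd1, which encodes PD-1, had 0 UMIs in the control nuclei and 1 in the PD-1 inhibitor nuclei, and 0 of 712 nuclei allows a share of up to 0.421% (3 counts) of nuclei with a UMI, which at this depth sets no limit on nuclei expressing the gene. Cd274, which encodes its ligand PD-L1, had 12 and 11 UMIs, and Tcf12 had 207 and 196 CPM (log2 -0.08).

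Among 26 growth factor and hormone receptors, Tgfbr2 was lower (-0.68) and none higher, and among 10 circadian clock genes Nr1d1 was lower (-0.65). Of 10 glucocorticoid response genes, Ddit4 was higher (1.09, on 57 and 76 UMIs). Of 8 nuclear long noncoding RNAs, Gas5 was higher (0.89, on 298 and 344 UMIs) and Kcnq1ot1 lower (-1.05). Malat1 was within 1.5-fold, at 117149 and 126515 CPM. Of 10 ventricular genes only Irx3 passed 1.5-fold, and the median was 0.26.

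**Figure D4:**
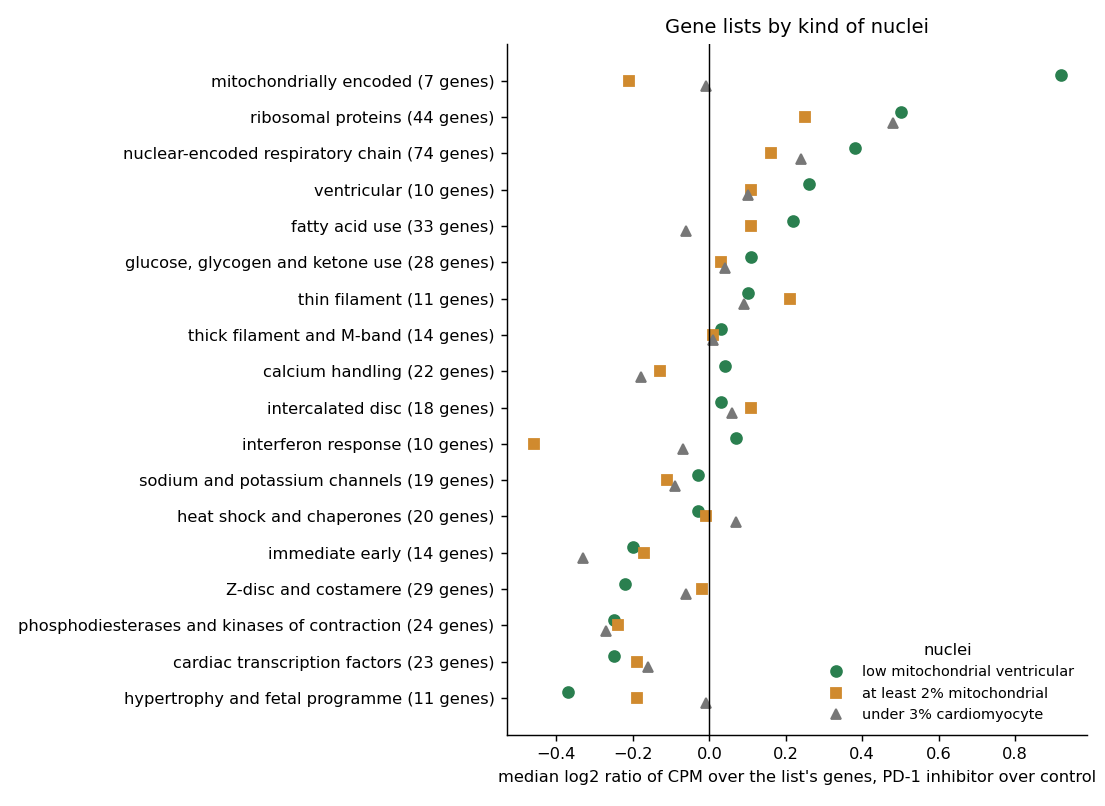
Median log2 ratio of CPM, PD-1 inhibitor over control (x axis), over the genes of 18 lists, with the number of genes measured in the class. Circles are the class, squares cardiomyocyte nuclei with at least 2% mitochondrial UMIs and triangles nuclei under 3% cardiomyocyte UMIs. The hypertrophy list stands at -0.37 in the class against -0.19 and -0.01, and the mitochondrially encoded list, whose genes set the limit between circles and squares, is shown as a description only.

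Ribosomal protein and respiratory chain genes were the lists outside the rule with the most higher genes. Of 74 nuclear-encoded respiratory chain genes, 16 were higher and none lower (median 0.38), where 7.79% of all genes were higher. Of 44 ribosomal protein genes 16 were higher and none lower (median 0.50). In the high mitochondrial nuclei the medians of these lists were 0.16 and 0.25, and in nuclei under the 3% limit 0.24 and 0.48. The direction was thus shared, and for ribosomal protein genes the size was close in nuclei under the limit. The 7 measured mitochondrially encoded genes, which the rule used, had a median of 0.92 that describes the shift of the mitochondrial share within the limit. Ndufa7 had 81.4 and 153 CPM (0.91), Cox8b 218 and 395 CPM (0.86), and Rps20 31 and 62 UMIs (1.67).

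In both libraries the summed respiratory chain genes were higher in nuclei with a higher mitochondrial share. The control nuclei of the class held 32.6% with under 0.25% mitochondrial UMIs, 36% at 0.25 to 0.5%, 25.1% at 0.5 to 1% and 6.32% at 1 to 2%, and the PD-1 inhibitor nuclei 6.39%, 23.5%, 44.7% and 25.4%. The summed respiratory chain genes had 10378 CPM in control nuclei and 10228 in PD-1 inhibitor nuclei of the first bin, 13264 and 14351 in the second, 16077 and 17349 in the third and 22494 and 21298 in the fourth. Within bins the log2 ratio was thus between -0.08 and 0.11, against 0.35 from the pooled sums. With the same mix of mitochondrial bins in both libraries, 1 of the 74 respiratory chain genes and 6 of the 44 ribosomal protein genes were at least 1.5-fold higher. The mitochondrial share differed between the libraries, so an equal mix also removes any difference that goes with it. Its part in the pooled ratio was not tested.

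Pdk4 and Txnip were lower in every bin. Pdk4 had log2 ratios of -2.80, -2.65, -3.14 and -4.03 from the lowest to the highest bin, the last on 8 and 1 UMIs. Txnip had -2.15, -2.95, -1.83 and -2.29, and Ugp2 -0.60, -1.41, -0.88 and -0.97. The summed immediate early genes had -0.56, -0.61, -0.57 and -0.80. Tnnt2, a gene of the rule and given only as a description, had 0.53, 0.61, 0.58 and 0.82. Split by UMIs per nucleus instead (500 to 1000, 1000 to 2000, 2000 to 4000 and at least 4000), Pdk4 had -2.68, -3.43, -3.00 and -2.72, and Txnip -2.75, -2.29, -2.04 and -2.05.

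**Figure D5:**
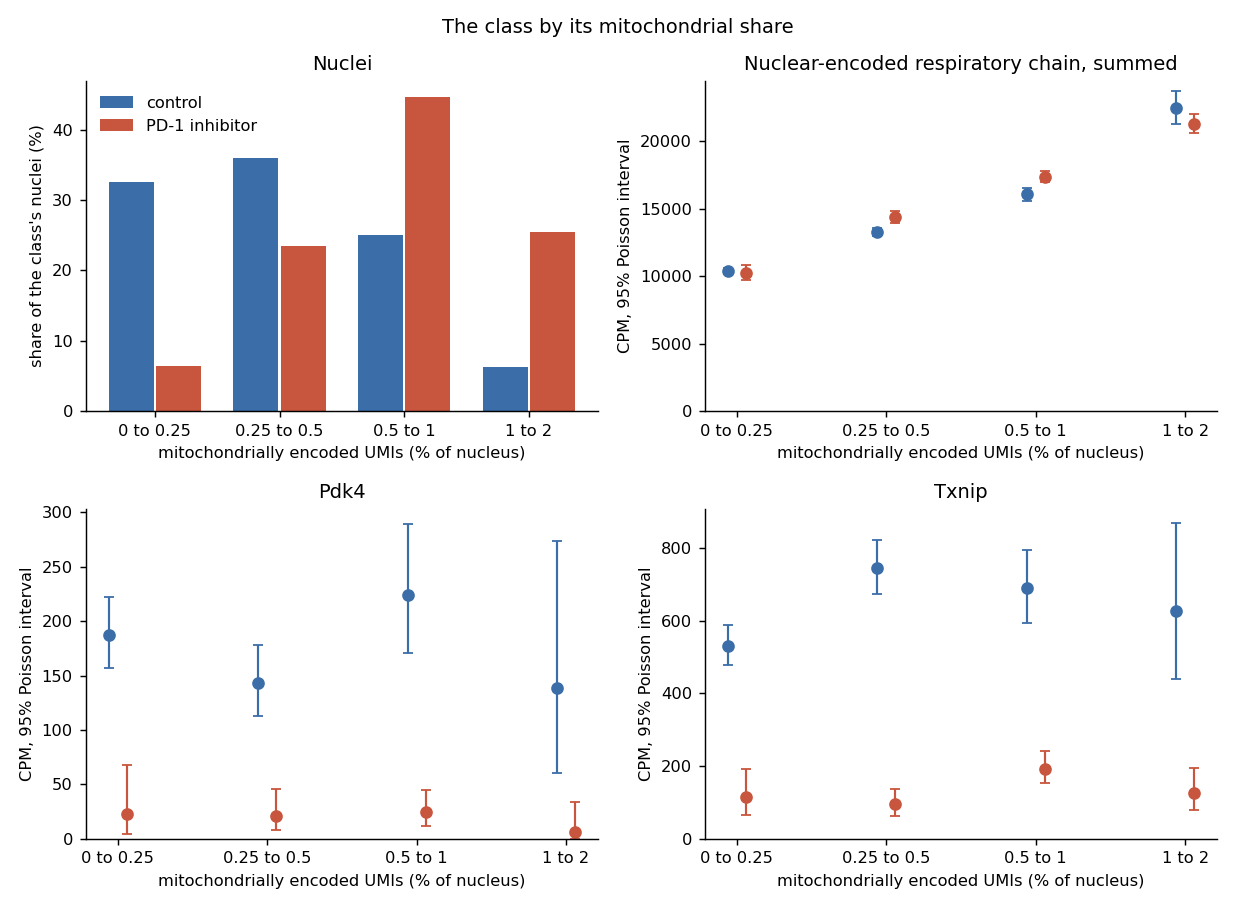
The class by the mitochondrial share of each nucleus (x axis, % of its UMIs). Bars give the share of the class's nuclei in each bin (%), and points the CPM of the summed nuclear-encoded respiratory chain genes, of Pdk4 and of Txnip with 95% Poisson intervals, for control (blue) and PD-1 inhibitor (red). The respiratory chain rises from 10378 to 22494 CPM across control bins with the libraries close together, while Pdk4 and Txnip are lower under PD-1 inhibitor in all 4 bins.

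Long genes were lower and short genes higher in the PD-1 inhibitor nuclei of the class. The median log2 ratio was 0.21, 0.09, 0.04, -0.08 and -0.22 from the shortest to the longest of 5 bins of genomic span, and Spearman's rho across the 7189 genes, which are not independent replicates, was -0.37. Nuclei under the limit gave a rho of -0.45 and medians from 0.15 to -0.19, so the pattern was not particular to the class. The high mitochondrial cardiomyocyte nuclei gave a weaker rho of -0.16 and medians from 0.07 to -0.18. Among the genes named above, Ctnna3, Kcnd2 and Slc8a1 are long, and Txnip, Tnnt2 and Atp5h are short. Magi2 (-0.38), not named above, is long as well. The part of length in the values of these genes was not tested. The median genomic span was 6.76 kb in the first bin and 160 kb in the last.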

How the data were processed

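Nuclei from mouse hearts were captured with a GEXSCOPE single-nucleus kit and sequenced on an Illumina NovaSeq instrument. The authors deposited 1 matrix of raw UMI counts per library (32589 genes, at least 500 UMIs in every nucleus), and their processing notes name the builds GRCm38 and mm10. The aligner, the counter and their strand setting are not given in the sources used here. The members and gene lists were chosen with earlier results of these data known.

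For each class and library the UMIs of a gene were added up and divided by the class total (CPM). Genes with at least 50 UMIs in the class were compared, with 0.5 UMI added to each sum for ratios. A gene was called past 1.5-fold (PD-1 inhibitor over control) or 2-fold in both libraries (against other nuclei). Intervals at 95% were exact Poisson, exact conditional binomial (ratios) and Clopper-Pearson (shares), and UMIs without replicates give counting error only. Every library sum includes the UMIs of any doublet, which were removed in an alternative. Genes named were the 10 lowest and 10 highest ratios among genes with at least 200 UMIs, the 15 leading genes of the class (of which 1 is not reported here), and up to 4 genes of each list that moved with its median and 2 against it. Scripts used Python 3.11.15, numpy 2.4.6, scipy 1.17.1, pandas 2.3.3 and scanpy 1.11.5 (Scrublet), and the interval code was tested on simulated data.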

Additional observations from a re-analysis of the deposited data

Results flagged for a closer look

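In the class, mt-Nd2 and mt-Nd3, both subunits of complex I encoded in mitochondria, had log2 PD-1 inhibitor over control ratios of 0.93 (0.79 to 1.08) and 1.21 (0.89 to 1.54). In cardiomyocyte nuclei with at least 2% mitochondrial UMIs their ratios were -0.31 (-0.36 to -0.26) and -0.13 (-0.25 to -0.01), with counting intervals on the opposite side of 0. The difference between the kinds of nuclei was not tested, and the mitochondrial limit that separates them uses these genes.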

How the results depend on the processing

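Over the alternatives, 462 of 516 values of named genes moved by less than their counting interval, 53 moved by more and 1 changed sign, mt-Nd5, to -0.78 on 13 UMIs with at least 10% cardiomyocyte UMIs. That limit left 13 control and 10 PD-1 inhibitor nuclei. Alternatives that changed only the minimum UMIs of a gene alter which genes are compared and cannot move the ratio of a gene. Values of named genes under those alternatives are among the 462 by construction. The count of 462 therefore overstates how many values were put to a test. Of 96 list medians, which have no interval, 12 stayed as they were, 81 took another value and 3 changed sign, all of heat shock and chaperones, to 0.06 (at least 5% cardiomyocyte UMIs), 0.07 (under 5% mitochondrial UMIs) and 0.08 (genes with at least 200 UMIs). Pdk4 stayed between -3.29 and -2.31 and Txnip between -2.30 and -1.85.

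With at least 5% cardiomyocyte UMIs the class made 3.08% of control and 3.21% of PD-1 inhibitor nuclei (ratio 1.04), 432 genes were lower than in other nuclei, respiratory chain genes higher were 25, ribosomal 10, and lower counts were heat shock 3, hypertrophy 1 and immediate early 2. With at least 10% the shares were 0.127% and 0.126% (ratio 0.985), 3 genes were higher and 8 lower, and 17 were higher and 0 lower than in other nuclei. Under 1% mitochondrial UMIs the PD-1 inhibitor share was 4.54% (ratio 0.695) and 10 respiratory chain genes were higher. Under 5% the shares were 7.77% and 7.02%, 28 respiratory chain genes were higher and 1 hypertrophy gene lower. Leaving out nuclei above the 95th percentile of UMIs gave shares of 5.63% and 5.38%, 371 genes higher, 561 lower than in other nuclei, 3 heat shock genes lower and 6 ribosomal higher. Thinning left fewer UMIs, with 179 genes higher, 218 lower, heat shock 2, hypertrophy 1 and immediate early 0 lower, and ribosomal 1 higher. A minimum of 20 UMIs gave 1227 higher and 1060 lower. A minimum of 200 gave 96 and 109, rho -0.50, heat shock 2 and immediate early 1 lower, and ribosomal 2 higher. A 2-fold limit gave 108 and 108, and a 4-fold limit against other nuclei 455 and 351. Mean shares per nucleus gave 10 ribosomal genes higher and the same mix of depths 10 respiratory chain genes. The same mix of mitochondrial shares, chosen after seeing the data, gave 0 mitochondrially encoded (as its construction fixes), 1 respiratory chain and 6 ribosomal genes higher and 5 hypertrophy genes lower. The cause of each change other than fewer nuclei, genes or UMIs was not tested.

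No paired analysis was possible because each condition had 1 library. For the same reason no library was left out in turn, and conditions and libraries cannot be told apart.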

Other observations

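Pairs of genes that mark a developmental or muscle form were set side by side after other values had been seen. Tnni1, the fetal troponin I, had 1 of 3287 UMIs of Tnni1 and Tnni3 together in the control nuclei of the class and 2 of 2450 in the PD-1 inhibitor nuclei. The ventricular light chain Myl3 made 96.4% and 97.5% of Myl3 and Myl4. Acta1, the skeletal actin, made 2.16% of Acta1 and Actc1 in the control nuclei and 1.55% in the PD-1 inhibitor nuclei, beside 2.94% and 2.67% in cardiomyocyte nuclei with at least 2% mitochondrial UMIs. Cox8a, the form found in most tissues, made 31.9% of Cox8a and the muscle form Cox8b in the control nuclei and 20.9% in the PD-1 inhibitor nuclei, beside 11.7% and 10.7%, while Cox7a2 made 36.1% and 34.7% of Cox7a2 and Cox7a1, beside 36.2% and 36.6%.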
